A study of Mus musculus with 4 samples.

Results

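Fga, Fgb and Fgg encode the Aα, Bβ and γ chains of fibrinogen, and these 3 genes were taken by their symbols from the 55401 gene identifiers of the count files. All 3 had reads in each of the 4 libraries. They were chosen with their values in these libraries known, in particular the gap between the kidney libraries, so every value below is a description and carries no test. The RNA came from C57BL/6 mice after cecal ligation puncture (CLP), a surgical model of sepsis in which the tied and pierced cecum spills its bacteria. There was 1 library each of CLP kidney, CLP + MLT kidney, CLP heart and CLP + MLT heart, where MLT is melatonin. Every group had undergone CLP, and sham mice were not analysed here. For the kidneys the study's methods give male mice aged 8 weeks, drinking water with 25 μg/ml melatonin over 14 days, surgery on day 15 with a 19-G needle, and collection 24 h later. The paper does not describe the hearts. The labels carry an unexplained 4 in the names of the melatonin libraries, and neither labels nor paper tell if a library pooled mice or if kidney and heart came from the same mouse. With 1 library per group, the variation from mouse to mouse is unknown.

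Between 15883057 and 22927905 reads were counted on genes per library. The 9 kidney tubule markers had 3489 to 94985 counts in the kidney libraries. Of the 9 heart muscle markers, 8 had 1009 to 208975 counts in the heart libraries, while the atrial light chain gene Myl7 had 1 and 0. Each heart library also held reads of all 9 tubule markers, which are given beside the heart values. Counts of reads are given as deposited. CPM here is counts per 1000000 after TMM scaling over the 4 libraries, and intervals are 95% exact intervals that cover counting error only.

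Fibrinogen circulates as a dimer in which each unit joins an Aα, a Bβ and a γ chain by disulfide bonds in the endoplasmic reticulum. Thrombin cuts short peptides from the Aα and Bβ chains, and the resulting fibrin monomers polymerize into the clot that plasmin later dissolves. Hepatocytes make nearly all plasma fibrinogen, and interleukin 6 raises transcription of the chain genes in the acute phase response through STAT3, with C/EBP factors at the promoters. Epithelial cells outside the liver can also express the chains, and damaged kidney tubules are a known site.

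The 3 genes lie side by side within 42140 bases of chromosome 3 (mm10, GENCODE release M21). Fgg (ENSMUSG00000033860.13) runs from 83007724 to 83015049 on the plus strand, and Fga (ENSMUSG00000028001.16) from 83026076 to 83033627 on the same strand. Fgb (ENSMUSG00000033831.5) runs from 83040141 to 83049863 on the minus strand, so that Fga and Fgb point toward each other across a gap of 6513 bases. The bases just upstream of each start are shown because all chains were lower in the CLP + MLT libraries. RNA counts of factors known from the promoters of the chains are also given below, but binding was not measured. They come from RefSeq (GRCm38.p6, the build of mm10), are written 5′ to 3′ on the strand of the gene, and stop before the first base that either RefSeq or GENCODE counts as transcribed. Capitals mark the matches described next.
Fga, chr3:83025903-83026075, plus strand: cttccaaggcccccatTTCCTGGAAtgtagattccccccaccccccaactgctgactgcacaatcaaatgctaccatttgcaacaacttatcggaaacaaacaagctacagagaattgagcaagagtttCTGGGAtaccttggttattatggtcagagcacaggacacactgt
Fgb, chr3:83049864-83050113, minus strand: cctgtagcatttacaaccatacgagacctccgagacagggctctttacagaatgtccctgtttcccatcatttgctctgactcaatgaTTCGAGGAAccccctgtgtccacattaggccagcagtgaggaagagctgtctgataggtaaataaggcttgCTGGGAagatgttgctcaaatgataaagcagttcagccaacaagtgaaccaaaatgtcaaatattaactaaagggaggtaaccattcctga
Fgg, chr3:83007474-83007723, plus strand: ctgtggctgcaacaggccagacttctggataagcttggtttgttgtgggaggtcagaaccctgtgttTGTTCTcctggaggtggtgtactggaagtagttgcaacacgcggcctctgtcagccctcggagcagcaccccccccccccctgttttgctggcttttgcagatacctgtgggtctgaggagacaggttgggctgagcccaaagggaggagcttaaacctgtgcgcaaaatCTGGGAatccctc

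Motifs were searched on both strands of the 250 bases before each RefSeq start. The core of the interleukin 6 response element, CTGGGA, occurred once in each chain gene, from base 121 before the start in Fga, base 91 in Fgb and base 13 in Fgg. It was present in 27.0% of the 32851 RefSeq promoter windows of the same length. The palindrome TTCNNNGAA, which STAT dimers read, lay farther out in Fga (from base 234) and Fgb (from base 162) and was found in 7.02% of all windows. The printed stretch of Fga is shorter because GENCODE starts that gene 77 bases before RefSeq does. TGTTCT, which is only a part of the glucocorticoid receptor element, occurred in Fgg, from base 183, and in 16.1% of all windows. The whole element was not among the motifs given here. Neither the C/EBP element TTNNGNAAT (10.2% of windows) nor TATAAA (12.4%) was matched in these windows of the chain genes, and none of the matches overlapped another. A match describes the letters only.

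In the CLP kidney library the chains were among the more abundant messages. Together they took 29458 reads, or 1285 reads per 1000000 on genes. Per kilobase of exon, Fgg stood at 236 CPM and ranked 119 among 21897 protein-coding genes, Fga at 135 CPM and rank 243, and Fgb at 45.5 CPM and rank 818. The CLP + MLT kidney library held 1099 chain reads, 66.7 per 1000000. There Fgg ranked 2087 with 17.2 CPM per kilobase, Fga 3899 with 8.83, and Fgb 12943 with 0.274. The hearts held 491 chain reads under CLP and 326 under CLP + MLT, and all 3 chains ranked between 5758 and 9609 in them.

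**Figure D1:**
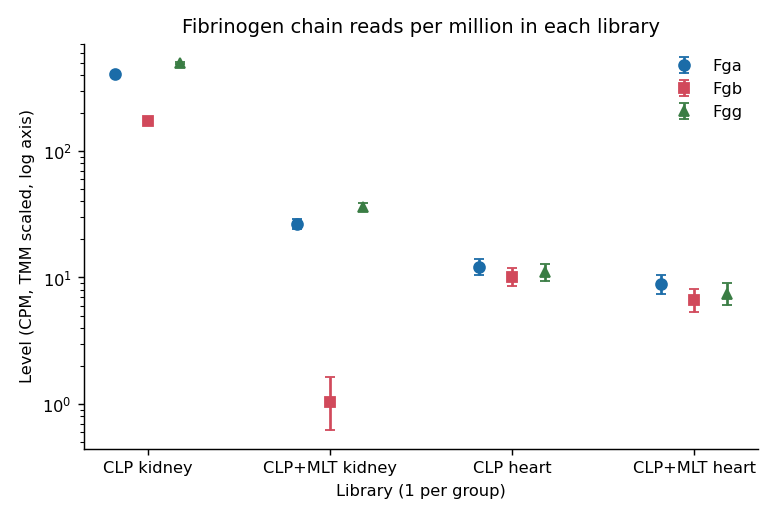
Level of Fga, Fgb and Fgg in the 4 libraries, in TMM scaled CPM on a log axis. Points are single libraries and bars are 95% exact Poisson intervals for counting error. The CLP kidney stands between 173 and 494 CPM, the hearts between 6.61 and 12.2 CPM, and Fgb in the CLP + MLT kidney at 1.04 CPM.

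The first comparison asks how the chains differed between septic kidneys with and without melatonin. Fga had 11150 counts in the CLP kidney and 459 in the CLP + MLT kidney. Fgb had 4755 and 18 counts. Fgg had 13553 and 622 counts. Every chain was thus far lower in the CLP + MLT kidney, and Fgb was close to absent there.

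On the log2 scale, with TMM within the tissue and a prior count of 0.5, the ratio of CLP + MLT over CLP was −3.93 (−4.07 to −3.80) for Fga, a level 15.2-fold lower. For Fgg it was −3.77 (−3.89 to −3.66), or 13.7-fold lower. For Fgb it was −7.34 (−8.13 to −6.71), or 162-fold lower. Among the 16932 genes that averaged 10 or more counts, Fgb ranked 1, Fga 31 and Fgg 40 from the lowest ratio. Of the genes with at least as many kidney reads as Fga, 383 in all, none had a lower ratio than Fga. The same held for Fgg among 266 genes. In the whole kidney comparison 11.6% of genes were at least 1.5-fold lower and 11.0% at least 1.5-fold higher, a count the chains were selected on and from which nothing is read. Scaled by library size only, all genes shifted by −0.19 and the share of higher genes among those past 1.5-fold went from 48.6% to 26.6%, while the chain ratios moved to −4.12, −7.54 and −3.97. In bulk tissue, fewer cells that express a chain and less RNA per cell cannot be told apart.

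Liver RNA was looked for with 12 hepatocyte markers. In both kidney libraries the fetuin gene Ahsg, Serpina3k, Mup3, Cyp3a11 and Tat were at 0, which allows up to 0.109 CPM in the CLP and 0.174 CPM in the CLP + MLT library, and Cps1 had 1 and 0 counts. Albumin (Alb) had 114 counts in the CLP kidney, where Fga had 11150. The markers with more reads were Ttr with 1209 and 793 counts (0.06), Apoh with 1325 and 636 (−0.39) and Serpina1a with 2070 and 2928 (1.17). The summed level of the list was 179.5 CPM in the CLP kidney and 267 CPM in the CLP + MLT kidney, of which Serpina1a made up 75.4 and 169.6 CPM. The part of liver transcripts in the kidney values of the chains was not tested.

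**Figure D2:**
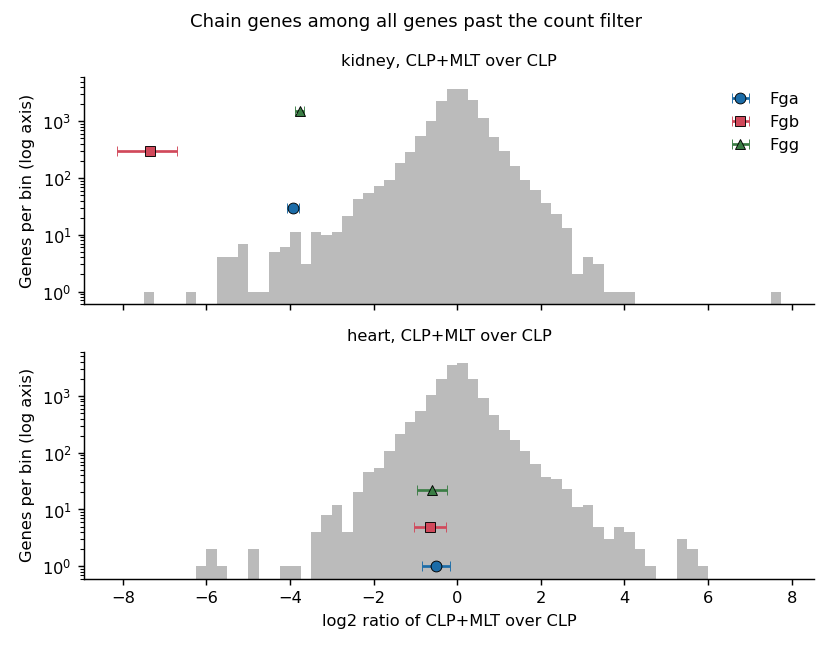
Log2 ratios of CLP + MLT over CLP for all genes averaging 10 or more counts (grey, genes per bin of 0.25 on a log axis), kidney above and heart below. Coloured points are the chains with 95% counting intervals and their height carries no value. In kidney the chains lie at −3.77, −3.93 and −7.34, and in heart between −0.65 and −0.50, within the bulk of genes.

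In heart the chains were low in both libraries and differed much less. Fga had 180 counts in the CLP heart and 126 in the CLP + MLT heart. Fgb had 149 and 94 counts. Fgg had 162 and 106 counts. Each chain was lower in the CLP + MLT library. The level of Fga was 12.2 CPM (10.5 to 14.1) under CLP and 8.86 CPM (7.38 to 10.5) under CLP + MLT. That of Fgb was 10.1 CPM (8.52 to 11.8) and 6.61 CPM (5.34 to 8.09). That of Fgg was 11.0 CPM (9.33 to 12.8) and 7.45 CPM (6.10 to 9.01).

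The log2 ratio was −0.50 (−0.84 to −0.17) for Fga, −0.65 (−1.04 to −0.27) for Fgb and −0.60 (−0.97 to −0.24) for Fgg. At least 1.5-fold lower were 2 of the 3 chains, Fgb and Fgg, beside 12.6% of the 15871 genes compared in heart. With scaling by library size only, by the upper quartile or over all 4 libraries together, or with a prior count of 5, it was 1 of 3. From the lowest ratio, Fgb ranked 1693, Fgg 1920 and Fga 2388. The difference between tissues, heart ratio minus kidney ratio, was 3.43 (3.07 to 3.78) for Fga, 3.17 (2.80 to 3.54) for Fgg and 6.69 (5.93 to 7.46) for Fgb. These intervals hold counting error only.

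Hepatocyte markers moved with the chains in heart. Serpina3k had 138 counts in the CLP heart and 77 in the CLP + MLT heart, Alb 140 and 70, Ahsg 76 and 37, Fetub 76 and 35, and Mup3 13 and 6. Of the 8 markers that passed the filter, 6 were at least 1.5-fold lower (12.6% of all genes). The gene at least 1.5-fold higher (10.9% of all genes) was 1, Serpina1a. The summed level of the list went from 39.6 to 25.2 CPM, and there were 0.838 and 0.911 chain reads per read of the list. Cps1 and Cyp3a11 were at 0 in both hearts. The part of these transcripts in the heart values of the chains was not tested.

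Kidney tubule markers moved the other way in heart. All 9 were higher in the CLP + MLT heart, from Umod (0.04) to the collecting duct water channel gene Aqp2 (2.45). At least 1.5-fold higher were 6 of them, beside 10.9% of all genes. The summed level of the 9 was 160.0 CPM under CLP and 301 CPM under CLP + MLT. In the CLP heart the markers stood at 0.676% to 5.20% of their level in the CLP kidney, and the chains at 2.22% (Fgg), 3.00% (Fga) and 5.82% (Fgb) of theirs. In the CLP + MLT heart the markers stood at 1.13% to 7.42% of the CLP + MLT kidney, but Fgg at 20.7%, Fga at 33.3% and Fgb at 634%. The chains were therefore in or just above the range of the markers in one pair of libraries and above it in the other. The part of kidney transcripts in the CLP heart was not tested.

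**Figure D3:**
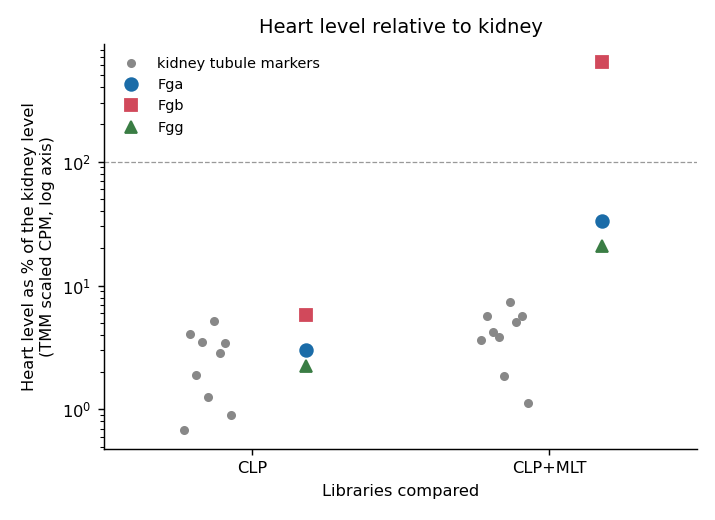
Level in heart as a percentage of the level in kidney of the same treatment, on a log axis. Grey points are the 9 tubule markers, coloured points the chains, and the dashed line marks equal levels. Under CLP the chains lie at 2.22% to 5.82%, beside the markers, and under CLP + MLT at 20.7% to 634%, above all of them.

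Set against each other within a treatment, kidney exceeded heart for every chain under CLP. The log2 ratio of kidney over heart was 5.06 (4.85 to 5.28) for Fga, 4.10 (3.87 to 4.35) for Fgb and 5.49 (5.27 to 5.73) for Fgg, which is 33.3-fold, 17.2-fold and 45.0-fold. All 3 chains were at least 1.5-fold higher in kidney, beside 37.3% of the 17419 genes compared (33.5% were at least 1.5-fold lower). Under CLP + MLT only Fga and Fgg were higher in kidney, with 1.58 (1.30 to 1.88) and 2.27 (1.97 to 2.58), beside 36.4% of 16729 genes. Fgb was lower in kidney than in heart, with 18 counts against 94 and a ratio of −2.63 (−3.48 to −1.93), beside 34.7% of genes at least 1.5-fold lower. Ordered by level, Fga and Fgg ran from the CLP kidney through the CLP + MLT kidney and the CLP heart to the CLP + MLT heart, whereas for Fgb the CLP + MLT kidney came last.

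The balance between the chains, which does not depend on how libraries are scaled, differed most in the share of Fgb. Fgb made up 16.1% (15.7 to 16.6) of the chain reads in the CLP kidney and 1.64% (0.974 to 2.58) in the CLP + MLT kidney. In the hearts it made up 30.3% (26.3 to 34.6) and 28.8% (23.98 to 34.1). The share of Fga stayed between 36.7% and 41.8% in all 4 libraries. That of Fgg was 46.0% and 56.6% in the kidneys and 33.0% and 32.5% in the hearts.

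For each read of Fga there were 0.426 (0.412 to 0.441) reads of Fgb in the CLP kidney and 0.0392 (0.0230 to 0.0627) in the CLP + MLT kidney, a ratio 10.9-fold lower (6.78 to 17.4). The ratio of Fgg to Fga was 1.22 (1.19 to 1.25) in the first and 1.36 (1.20 to 1.53) in the second, a change of 1.11-fold (0.986 to 1.26). In heart the ratio of Fgb to Fga was 0.828 (0.662 to 1.03) and 0.746 (0.565 to 0.982), a change of 0.901-fold (0.639 to 1.27). The kidney and heart of the CLP group also differed, since kidney held 1.94-fold (1.56 to 2.42) fewer Fgb reads per Fga read.

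These ratios are of reads, and the annotated genes differ in length. The exons of Fgb add up to 3810 bases in its 1 annotated transcript, those of Fga to 3010 and those of Fgg to 2093. Per length, Fgb made up 10.9% of the chain signal in the CLP kidney, 1.04% in the CLP + MLT kidney, 22.2% in the CLP heart and 21.1% in the CLP + MLT heart, and Fgg led in every library with 43.2% to 65.4%.

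**Figure D4:**
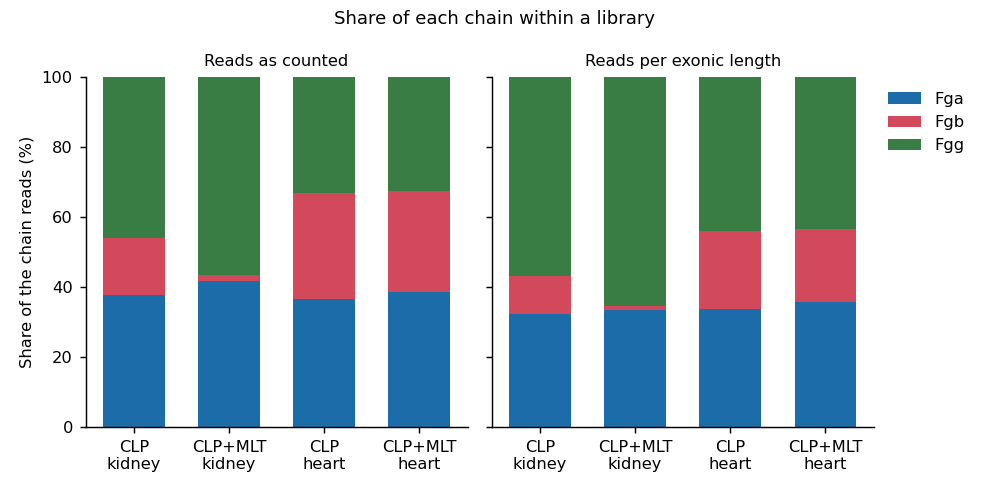
Share of Fga, Fgb and Fgg among the chain reads of each library in percent, with reads as counted on the left and reads per exonic length on the right. Fgb takes 16.1% of reads in the CLP kidney, 1.64% in the CLP + MLT kidney, and 30.3% and 28.8% in the hearts.

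The difference between the kidney libraries did not extend to the nearest gene outside the cluster. Plrg1, a spliceosome gene that starts 5659 bases beyond Fgb, had 506 and 331 counts in kidney, a log2 ratio of 0.06, and 206 and 233 in heart (0.19). Lrat, which makes retinyl esters and lies 103751 bases from the cluster, had 36 and 44 counts in kidney (0.95). Of the 15 annotated genes other than the chains within 500 kb of the cluster, only Plrg1, Lrat and Gm30097 passed the filter in kidney, and only Plrg1 did so in heart. Of the rest, Rbm46 had 2 and 1 counts in kidney, Npy2r had 1 and 0, Dchs2 had 2 and 2 in heart, and the others were at 0 in all 4 libraries.

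Gm30097 is a noncoding RNA on the minus strand whose exons cover 115 of the 2093 exonic bases of Fgg. It had 714 counts in the CLP kidney and 23 in the CLP + MLT kidney, and 7 and 6 in the hearts. For every Fgg read these are 5.27% (4.88 to 5.68), 3.70% (2.33 to 5.60), 4.32% (1.71 to 9.11) and 5.66% (2.03 to 12.7). The overlap is 5.49% of the Fgg exons, a share that each of these intervals includes. The part of Fgg transcripts in the Gm30097 counts was not tested. The library kit in the labels is not described as keeping strand, and no strand setting is given for the counting, so reads of Gm30097 and Fgg cannot be told apart and the counts of both are uncertain in that stretch. Fga and Fgb share no exonic base with another annotated gene.

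The genes most like the chains were found by the distance between centred log2 CPM profiles over the 4 libraries, among 17085 genes averaging 10 or more counts. Fga itself lay 1.02 from the mean profile of the chains, Fgg 1.52 and Fgb 2.52. The nearest was the serum amyloid gene Saa1 (1.03), with 3546 and 72 counts in kidney and 153 and 72 in heart. It is a near-identical copy of Saa2, and reads aligned to both may have been counted for neither. Gm30097 followed (1.17). Its counts may hold reads of Fgg, as described above, so its place in this order is not separate from that of Fgg. Hmox1, the heme-degrading oxygenase, came next (1.78), with 4739 and 472 counts in kidney and 265 and 215 in heart. Cd14, which presents lipopolysaccharide to TLR4 (1.96), had 787 and 69 counts in kidney and 41 and 56 in heart, and Slc5a2, the glucose transporter of the early proximal tubule (1.98), had 4771 and 637, then 237 and 183. Sec14l4 (1.79), D630023F18Rik (1.81), Ugt1a10 (1.89) and Gm15743 (1.96), had 43 to 93 counts in the CLP kidney and at most 10 in any other library. Likeness over 4 libraries says nothing of shared control.

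Most of the listed signalling genes, not all of which raise the chains in liver, were within 1.5-fold between the kidney libraries. Those past it were lower in the CLP + MLT library. Il6 itself had 4 and 1 counts in kidney and 0 and 1 in heart, where 0 allows up to 0.203 CPM. Of the 21 listed signals, receptors and kinases, 17 passed the filter in kidney, with a median log2 ratio of −0.13, 5 of them at least 1.5-fold lower and 0 higher, against 11.6% and 11.0% of all genes and a median of 0.0029 over them. Stat3, the transcription factor of the interleukin 6 response, had 2906 and 849 counts, a ratio of −1.10 (−1.22 to −0.99). Its target and inhibitor Socs3 had 376 and 102 counts (−1.21). The cytokine gene Lif had 54 and 8 counts (−2.03) and the receptor gene Tnfrsf1a 1783 and 598 (−0.90). The interleukin 6 receptor gene Il6ra had 133 and 50 counts (−0.73, −1.24 to −0.26), while the shared receptor Il6st differed little (−0.13). In heart the median was 0.0045, with 1 higher, Tnf (15 and 44 counts), and 1 lower, Cntfr (56 and 16 counts), and Stat3 had 2261 and 1893 counts (−0.25). Of all genes compared in heart, 12.6% were at least 1.5-fold lower and 10.9% higher, the shares to set beside each heart list below.

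Of 14 factors known from the promoters of the chains, 10 passed the filter in kidney with a median of 0.07. Of these, 1 was at least 1.5-fold lower and 1 higher, beside 11.6% and 11.0% of all genes. Stat3 was the lower one. Hnf4a had 10248 and 5925 counts (−0.12), Cebpb 413 and 301 (0.22), and the glucocorticoid receptor gene Nr3c1 814 and 478 (−0.10). Foxa1, Foxa2, Foxa3 and Onecut1 had 7 counts or fewer in the kidneys. In heart the median was 0.10 with 3 higher and 0 lower, among them Hnf4a (81 and 203 counts) and Cebpa (24 and 49). The tubule markers were higher in that library too, and the part of kidney transcripts in these values was not tested.

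The genes that act before and after fibrinogen in clotting went both ways between the kidney libraries. Of 17 genes of the cascade, 11 passed the filter in kidney with a median of −0.21, 4 at least 1.5-fold lower and 3 higher, beside the same 11.6% and 11.0% of all genes. F13a1, a subunit of the enzyme that crosslinks fibrin, had 91 and 19 counts (−1.57) and the kininogen gene Kng1 197 and 61 (−1.01). Klkb1, the plasma kallikrein gene, had 65 and 96 counts (1.23) and Kng2 13475 and 13175 (0.64). The thrombin gene F2 had 22 and 30 counts (1.10) and tissue factor, F3, 445 and 243 (−0.20). In heart 8 passed with a median of −0.06, 1 higher (Kng2, 1.00) and 1 lower (F13a1, −0.66). The tubule markers were higher in the CLP + MLT heart too, and the part of kidney transcripts in the heart value of Kng2 was not tested.

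The anticoagulant genes had a median of −0.46 in kidney, where 4 of 9 were at least 1.5-fold lower and 1 higher, beside 11.6% and 11.0% of all genes. Tfpi2, a protease inhibitor, had 107 and 8 counts (−3.01), Serpina10 148 and 42 (−1.14) and Proz, the cofactor of Serpina10, 21 and 49 (1.86). Thrombomodulin (Thbd) had 328 and 133 counts (−0.63). In heart the median of 8 genes was 0.0053, with 2 higher and 1 lower. Of the fibrinolysis genes, 11 passed in kidney with a median of −0.15, 2 lower and 1 higher (the inhibitor Cpb2, 0.86), beside the same shares of all genes. Among the lower ones was the urokinase receptor Plaur with 125 and 40 counts (−0.97), while the activator genes Plat (−0.49) and Plau (0.50) did not reach 1.5-fold. In heart 10 passed with a median of 0.09, Plau with 31 and 172 counts (2.46) higher and Serpine2 with 370 and 199 (−0.88) lower. Plau had 9025 and 8035 counts in kidney. The tubule markers were also higher in the CLP + MLT heart, and the part of kidney transcripts in the heart values of this paragraph was not tested.

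The 11 receptors of fibrinogen and fibrin had a median of −0.23 in kidney, with 3 at least 1.5-fold lower and 2 higher, beside 11.6% and 11.0% of all genes. The lower ones were the integrin gene Itgb3 (71 and 5 counts, −3.06), Tlr4 (64 and 17, −1.22) and Icam1 (1422 and 499, −0.84). The higher ones were Itgam (0.80) and Itgb2 (0.81), the subunits of the leukocyte receptor Mac-1. In heart the median was 0.06, with 2 lower and 0 higher. Of 19 genes with a fibrinogen-like domain, 15 passed in kidney with a median of −0.09, 4 lower and 2 higher, beside 11.6% and 11.0% of all genes. In heart 14 passed with a median of −0.44, 5 lower, among them Mfap4 (−1.19), Angpt1 (−1.05) and Angptl4 (−0.99), and 2 higher, Tnc with 7 and 26 counts (1.83) and Tnn (0.86).

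Most other acute phase genes that passed the filter were at least 1.5-fold lower in the CLP + MLT library of either tissue. The list had been written with earlier results of these data known, so its direction is no independent evidence. In kidney 11 of 14 genes were at least 1.5-fold lower and 0 higher, beside 11.6% and 11.0% of all genes, with a median of −1.03. They included Serpina3n with 255 and 15 counts (−3.38), Lrg1 with 4629 and 418 (−2.80), osteopontin (Spp1) with 251014 and 32496 (−2.28), and the interleukin 1 receptor antagonist Il1rn with 20 and 0. In heart 8 of 14 were lower and 0 higher, beside 12.6% and 10.9% of all genes, with a median of −0.84, led by Lrg1 with 4383 and 548 counts (−2.99), Il1rn (−2.23), Timp1 (−2.09) and Saa3 (−2.09).

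Markers of injured tubules, a list with the same limit that shares Spp1 and Timp1 with the acute phase list, had a median of −1.25 in kidney, 9 of 15 at least 1.5-fold lower and 2 higher, beside 11.6% and 11.0% of all genes. The kidney injury molecule gene Havcr1 had 1517 and 43 counts (−4.46), between Fga and Fgb in ratio. Plin2 of lipid droplets had 10595 and 1014 (−2.71), Krt20 78 and 8 (−2.56) and the progenitor factor Sox9 92 and 11 (−2.35). In heart 11 passed with a median of −0.33, 4 lower and 2 higher, from Lcn2 (−3.10) to the epithelial keratin gene Krt8 (1.67), which had 24 and 77 counts there. Folding and export genes, which a secreted disulfide-bonded protein needs, were slightly lower in the CLP + MLT kidney. Their median was −0.49, against 0.0029 over all genes compared in kidney, and all 12 lay below 0. At least 1.5-fold lower were 2 of the 12, beside 11.6% of all genes: the transport coat gene Sec24d (−0.996) and the chaperone Hspa5 (−0.67). In heart their median was −0.04 with none past 1.5-fold.

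**Figure D5:**
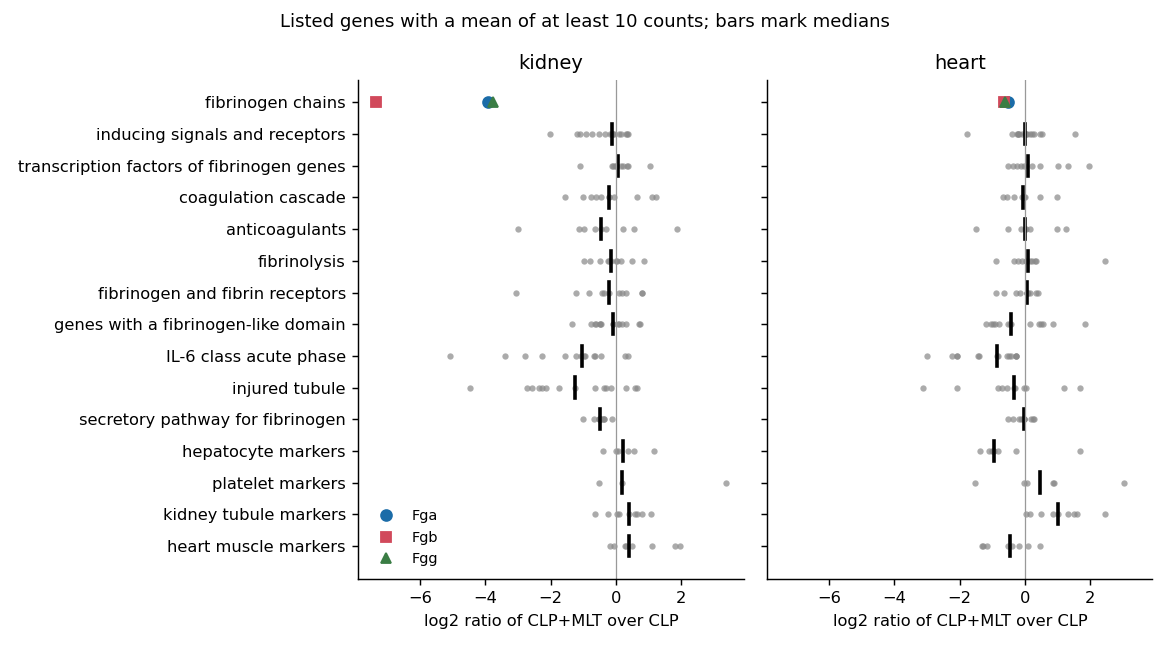
Log2 ratio of CLP + MLT over CLP for the chains (top row) and for each listed gene averaging 10 or more counts (grey points), kidney left and heart right, with list medians as black bars. In kidney, where they were chosen, the chains lie at −7.34 to −3.77 and the list medians at −1.25 to 0.41, and in heart the chains lie at −0.65 to −0.50 and the medians at −0.96 to 1.01.

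Platelets carry fibrinogen protein. The list of 10 platelet markers held 370 and 276 reads in kidney, beside 29458 and 1099 chain reads, and 387 and 444 reads in heart, beside 491 and 326. Of these markers, 3 passed the filter in kidney (median 0.17, 1 higher and 0 lower) and 6 in heart (median 0.45, 3 higher and 1 lower). For these and the other marker lists of this paragraph, 11.6% of all genes were at least 1.5-fold lower and 11.0% higher in kidney. In heart these shares were 12.6% and 10.9%. Pf4 had 12 and 6 counts in kidney and 88 and 86 in heart. Ppbp had 3 and 23 counts in kidney (3.37) and Tubb1 had 3 and 28 in heart (3.03). The tubule markers had a median of 0.41 in kidney, with Slc12a1 (1.07), Miox (0.79) and Slc34a1 (0.63) at least 1.5-fold higher and Slc22a6 (−0.63) lower. In heart it was 1.01, and after Aqp2 came Slc12a1 (1.59), Lrp2 (1.50) and Slc34a1 (1.32). The 6 hepatocyte markers past the filter in kidney had a median of 0.22, 1 higher (Serpina1a, 1.17) and 0 lower, and the 8 in heart one of −0.96, with Apoh at −1.38 and Serpina1a at 1.70. The heart muscle markers had a median of −0.45 in heart, 3 lower (Myl2, −1.33, Tnni3, −1.27, and Nppa, −1.17) and 0 higher, and one of 0.39 in kidney, 3 higher (Ryr2, 1.95, Myl2, 1.81, and Tnni3, 1.11) and 0 lower, where each had 69 counts or fewer.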

How the data were processed

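RNA from 4 libraries, 1 per group, was analysed. Per the labels, messenger RNA was selected with poly-T beads. The authors trimmed reads with trim-galore and aligned them to mm10 with HISAT2 2.1.0, and the submitters' processing notes name HTSeq. They deposited counts of reads per gene without normalization. For HTSeq, neither version nor strand setting nor annotation is given in the sources used here. The 5 closing lines of each file, which hold totals and no gene, were left out. Reads that the counting assigned to no gene made up 52.1% to 52.6% of those assigned to 1 gene or to none. Such reads need not lie outside genes. Reads aligned to more than 1 place were 23.6% to 38.6% of each file.

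Symbols and positions came from GENCODE M21 (GRCm38), matched by identifier without version for 55141 of 55401 genes. TMM factors (R 4.3.3, edgeR 4.0.16) were computed over genes averaging 10 or more counts, within a tissue for CLP + MLT over CLP and over all 4 libraries for levels and for kidney over heart. DESeq2 1.42.0 gave alternative size factors. Log2 ratios used a prior count of 0.5, adjusted for library size. Intervals for ratios of counts and shares are 95% Clopper-Pearson intervals, those for levels are exact Poisson intervals, and those for differences between tissues and changes of a chain ratio use the normal approximation to the log of counts. A count of 0 was given the limit of 3 counts. PCR copies are not independent molecules, so all of these cover counting error only. No test was run and no p-value is given: the study's edgeR thresholds of fold change and p-value need a spread that 1 library per group does not give, so only its fold of 1.5 was used. Ratios and intervals were tried on counts simulated with Poisson error only. This checks the calculation and says nothing of variation between mice or of PCR copies. Python 3.11.15, numpy 2.4.6, pandas 2.3.3, scipy 1.17.1 and matplotlib 3.10.9 were used.

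The chains, the 14 gene lists and the motifs were written from general knowledge with earlier results of these data known. Named are the annotated genes within 500 kb of the cluster that had a read, the 10 nearest in pattern, and from each list up to 4 genes per tissue with the largest ratio and a counting interval wholly past 1.5-fold. Other list members, such as Il6, F2, Thbd or Pf4, were named for their role or after their values were seen. Some genes that this rule takes, and 1 motif, are not reported here. Alternatives were other scalings, leaving out mitochondrial and haemoglobin genes, a prior count of 5, no filter or an average of 50 or more counts, a fold of at least 2, and reads per exonic length.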

Additional observations from a re-analysis of the deposited data

Results flagged for a closer look

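Fgb went in opposite directions in the 2 treatments when kidney was set against heart. Under CLP it was higher in kidney, with a log2 ratio of 4.10 (3.87 to 4.35), and under CLP + MLT it was lower in kidney, with −2.63 (−3.48 to −1.93). Each counting interval lay wholly past 1.5-fold. The difference was not tested, since each group has 1 library. Fga and Fgg were higher in kidney under both treatments.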

How the results depend on the processing

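Every chain ratio kept its sign under every scaling, prior count and gene set tried. In kidney the ratios ran from −4.12 to −3.91 for Fga, from −7.54 to −7.10 for Fgb and from −3.97 to −3.75 for Fgg, and in heart from −0.51 to −0.45, −0.66 to −0.60 and −0.61 to −0.54. Scaling by library size only moved values past their counting intervals: to −4.12 (Fga) and −3.97 (Fgg) in kidney, and for kidney over heart under CLP to 5.49 (Fga), 4.53 (Fgb) and 5.92 (Fgg). That scaling shifts all genes. Their median went from 0.0029 to −0.19 in kidney and from 0.09 to 0.51 for kidney over heart under CLP. In the latter comparison the share of higher genes among those past 1.5-fold went from 52.7% to 65.9%. Scaling by library size only also moved the median of the promoter factors in kidney to −0.12 and that of the folding and export genes to −0.68, both by about the shift of all genes.

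Per exonic length the shares of the chains moved, by construction, to 32.4% (Fga), 10.9% (Fgb) and 56.7% (Fgg) in the CLP kidney, 33.6% (Fga) and 65.4% (Fgg) in the CLP + MLT kidney, 22.2% (Fgb) and 43.9% (Fgg) in the CLP heart, and 21.1% (Fgb) and 43.2% (Fgg) in the CLP + MLT heart.

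The numbers of genes past 1.5-fold were 1971 lower and 1863 higher in kidney and 1997 and 1726 in heart. In kidney they were 3172 and 1149 with library size only, 5984 and 4711 without a filter, 1012 and 1002 for genes averaging 50 or more counts, and 830 and 699 at 2-fold. In heart they were 5378 and 5083, 1143 and 727, and 829 and 730 under the last 3 of these. For kidney over heart, 5833 lower and 6504 higher under CLP became 9256 and 11108 without a filter, and 5813 and 6081 under CLP + MLT became 9176 and 10135.

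No paired analysis was possible because each group has 1 library and no test was run. Depth limits the ratios of Fgb in kidney, which rests on 18 counts in the CLP + MLT library, and of all chains in heart, which rest on 94 to 180 counts per library.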
